A study of Homo sapiens with 9 samples.

Results

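Levels of 10 genes of the YAP/TAZ axis were examined among the 61541 gene identifiers counted in H69, an immortalized human cholangiocyte line derived from the epithelium of bile ducts. The 10 genes are the effectors YAP1, WWTR1 and TEAD1, the targets CCN1, CCN2, ANKRD1 and AXL, and the regulators AMOTL2, AJUBA and LATS2. AMOTL2 and LATS2 are also targets in the published signature used below. These 10 genes were chosen by pathway with earlier results from these same libraries in view, in which CCN1 had been called higher with laminin. Their group differences are therefore given as a description with intervals, and no p-value is given for them. All 10 passed the filter on low counts, which left 15997 genes in the comparisons.

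RNA sequencing of poly(A)-selected RNA gave 9 libraries, 3 per group. The laminin group received recombinant human laminin 511-E8, an integrin-binding fragment of the basement membrane protein laminin 511, at 0.25 µg/cm2 for 48 h. The acetazolamide group received 10 µM of this carbonic anhydrase inhibitor for 48 h. The control group received the vehicle DMSO, and no source used here says whether the laminin wells also held DMSO, so vehicle and laminin cannot be told apart in that comparison. All groups were the same cell line, labelled wild type, treated once confluent. The libraries of a group are described as biological replicates, and separate passages or days are not given, so errors measure the spread between these cultures.

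YAP1 and its paralogue TAZ, the product of WWTR1, are transcriptional coactivators that do not bind DNA themselves and act mainly through TEAD factors. In the Hippo pathway, LATS kinases phosphorylate YAP and TAZ, which keeps them in the cytoplasm, and cell density, matrix stiffness and integrin adhesion act on this step. Most of this control acts on the proteins and their location rather than on the mRNA of YAP1 or WWTR1. In the liver, YAP activity is known for its part in biliary fate and in growth of bile duct epithelium. Target genes such as CCN1 and CCN2 are widely used as readouts of that activity, although serum and other growth signals induce them as well.

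The core letters that TEAD factors recognise, GGAATG, occurred 3 times in the promoter window of CCN2 and 2 times in that of ANKRD1. These stretches are shown because both genes are classical YAP/TAZ targets whose promoters hold the letters more than once. CCN2 is one of the genes the results turn on, and ANKRD1 is a target whose treated and control libraries overlapped. They come from RefSeq on GRCh38.p14, read 5′ to 3′ on the minus strand, at chr6:131951450-131951553 for CCN2 and chr10:90921198-90921319 for ANKRD1, with motif letters in capitals.
CCN2: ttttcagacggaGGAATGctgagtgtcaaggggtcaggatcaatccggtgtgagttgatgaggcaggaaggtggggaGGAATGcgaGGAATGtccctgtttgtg
ANKRD1: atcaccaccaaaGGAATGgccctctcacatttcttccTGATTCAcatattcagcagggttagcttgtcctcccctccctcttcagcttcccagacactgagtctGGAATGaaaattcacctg
The capitals between both TEAD words of ANKRD1 mark TGATTCA, a match to the pattern TGANTCA, and did not overlap a TEAD word. With N as any base, this pattern is looser than the AP-1 consensus, which holds G or C there. Windows of 300 bases, 250 before and 50 after the start, were found for 8 of the 10 genes, CCN1 and TEAD1 having no entry. Searched on both strands, GGAATG was in at least 1 window of YAP1, AMOTL2, AJUBA, LATS2 and AXL as well, once each, and in 0 windows of WWTR1. Of all 35116 windows in the table, 14.0% held the letters at least once and 1.37% held them 2 times or more, and 7.71% held TGANTCA. A match of letters is a description and not a binding site.

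Libraries held 12529867 to 39518899 counts, and a count of 0 allows up to 0.0759 to 0.239 CPM, counts scaled to the library total, which covers counting error only. Libraries differed in how their counts depended on the GC content of genes. From genes of 38.5% GC to genes of 60.8% GC, the trend rose by 0.589 on the log2 scale in laminin replicate 2 and by 0.855 in acetazolamide replicate 3. It was -0.624 in acetazolamide replicate 2, and between -0.374 and 0.188 in the other 6 libraries. Values are therefore also given after removal of each library's own trend, called GC correction. Mitochondrial transcripts took 16.2% of the counts of control replicate 2 and 9.43 to 11.8% in the other 8 libraries, and this control library had the lowest CPM of all 9 in CCN1, CCN2, AXL, AJUBA and LATS2. The cholangiocyte keratins KRT7 and KRT19 were abundant in every library, hepatocyte markers, led by TF and HP, summed to at most 1.27 CPM, and the bile duct marker SPP1 was at 0 counts throughout.

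Per length, YAP1 had the highest level of the 10 genes in control cells and ANKRD1 the lowest. In TPM, a transcript level scaled for depth and for the length of the joined exons, control cells held 162.5 ± 33.4 of YAP1, 131.6 ± 22.9 of CCN1, 120.5 ± 25.9 of AXL and 84.7 ± 18.2 of TEAD1 (SD, n = 3). AJUBA followed with 68.2 ± 16.3, WWTR1 with 53.8 ± 10.8, AMOTL2 with 53.5 ± 10.9, CCN2 with 44.7 ± 7.13, LATS2 with 33.7 ± 9.499 and ANKRD1 with 7.62 ± 1.03 TPM. The order was the same with the length of the longest transcript. Neighbours from YAP1 to AXL, and from TEAD1 down to CCN2, lay within the larger of their SDs of each other, whereas AXL and TEAD1, CCN2 and LATS2, and LATS2 and ANKRD1 were farther apart than that. Among genes that reached 10 counts in each control library, the median was 15.8 TPM, so ANKRD1 alone of the 10 was below it.

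The clearest differences among the 10 genes were in CCN1 and CCN2, which were higher in every library of both treatments than in any control library. On this scale, CPM, 1.76% of all genes tested were higher in all 6 treated libraries, and 1.19% were after TMM scaling, which adjusts library totals for composition. Nothing is read from the count since these contrasts were known when the genes were chosen. CCN1 (ENSG00000142871, chromosome 1, 85580761 to 85583962, plus strand, GRCh38) encodes CYR61, a secreted matricellular protein that binds integrins. It had 165.0, 160.5 and 170.4 CPM with laminin 511-E8 and 152.4, 142.5 and 166.7 CPM with acetazolamide, against 112.5, 95.1 and 101.2 CPM in control cells. The lowest treated library was thus above the highest control library. The means of CCN1 were 165.3 ± 4.96 CPM with laminin, 153.9 ± 12.2 CPM with acetazolamide and 102.9 ± 8.85 CPM in control cells (SD, n = 3 each).

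CCN2 (ENSG00000118523, chromosome 6, 131948176 to 131951373, minus strand) encodes CTGF, the related matricellular protein, and is the gene with 3 TEAD words in the promoter stretch shown above. Its level was 50.1, 46.7 and 46.7 CPM with laminin and 48.8, 46.5 and 50.7 CPM with acetazolamide, against 35.9, 31.3 and 32.7 CPM in control cells. All 6 treated libraries lay between 46.5 and 50.7 CPM, and laminin and acetazolamide overlapped. In bulk RNA, a change in the share of cells that express a gene and a change in RNA per cell cannot be told apart.

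**Figure D1:**
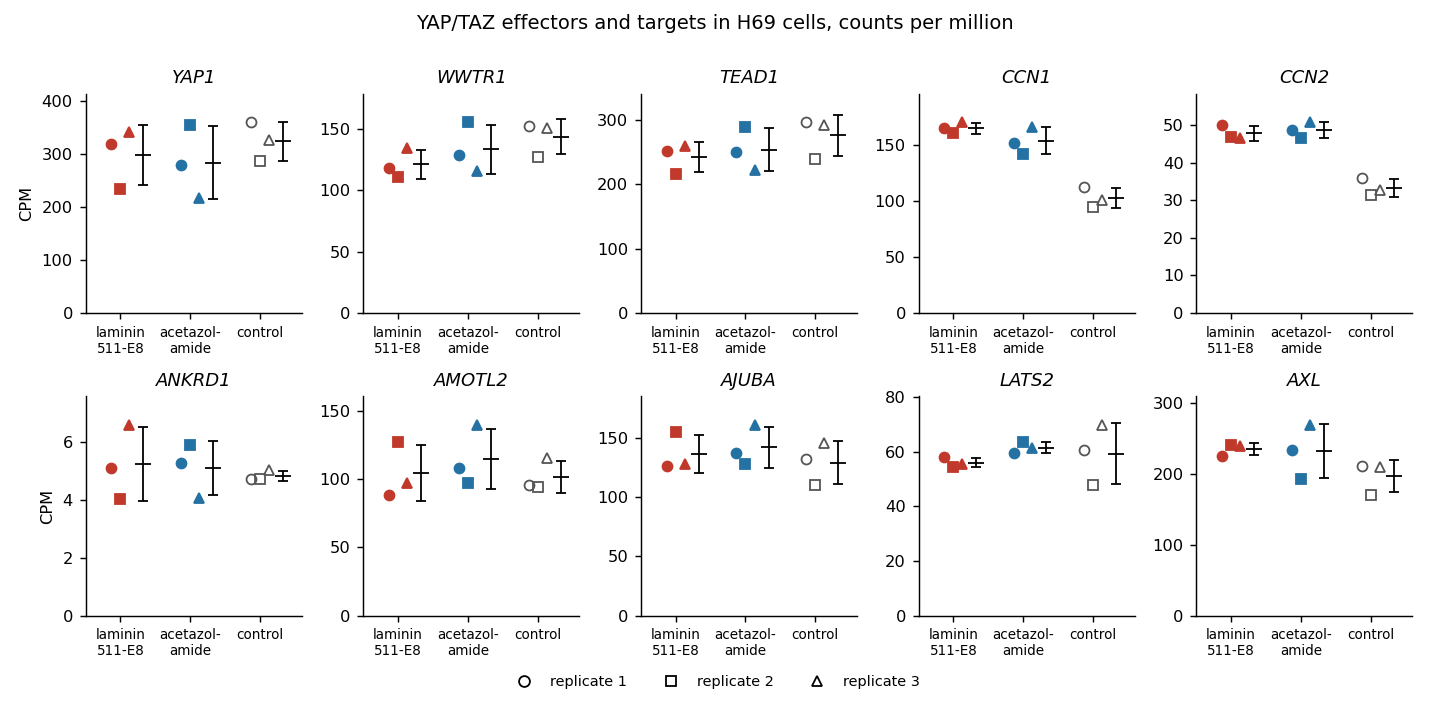
Level of each of the 10 genes in CPM (vertical axis, from 0) in every library of the laminin 511-E8, acetazolamide and control groups. Marker shapes give the replicate number, the horizontal bar is the group mean and the whiskers are 1 SD (n = 3). Of the 10 genes, CCN1 and CCN2 show all treated libraries of both groups above all control libraries, as 1.76% of all genes tested do.

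Fitted with edgeR's quasi-likelihood model over all 9 libraries, the log2 fold change of CCN1 with laminin against control was 0.66 (SE 0.11, 95% interval 0.42 to 0.90), a fold of 1.58. With acetazolamide against control it was 0.52 (SE 0.11, 0.28 to 0.76), a fold of 1.43. For CCN2 the values were 0.49 (SE 0.11, 0.25 to 0.74) with laminin and 0.48 (SE 0.11, 0.24 to 0.73) with acetazolamide. Both comparisons share the control libraries, so they are not independent of each other. Without laminin replicate 2 and acetazolamide replicate 3, the libraries with the steepest GC rise, CCN1 stood at 0.70 with laminin and 0.48 with acetazolamide on the log2 scale. CCN2 then stood at 0.53 with laminin and 0.47 with acetazolamide. Without control replicate 2, CCN1 stood at 0.64 with laminin and 0.50 with acetazolamide, and CCN2 at 0.49 with laminin and 0.48 with acetazolamide. Over all 32 settings of the fit, CCN1 ranged from 0.561 to 0.70 with laminin and from 0.425 to 0.567 with acetazolamide.

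Whether CCN1 and CCN2 counted as called depended on the method. Without GC correction, edgeR called 0 of 15997 genes (0%) at an adjusted p under 0.05 in each of the 3 comparisons, hence 0 of the 10. At an unadjusted p under 0.05 there were 454 genes for laminin against control, 292 for acetazolamide against control and 374 for laminin against acetazolamide, and limma voom also called 0 genes. With GC correction, edgeR called 49 of 15737 genes for laminin against control (0.311%, with 1195 at an unadjusted p under 0.05). CCN1 was among the 49, and none of the other 9 was. With this correction edgeR called 0 genes for acetazolamide against control (0%, with 649 at an unadjusted p under 0.05) and 30 for laminin against acetazolamide (0.191%), none of them among the 10. DESeq2 without GC correction called 21 genes for laminin against control (0.131%) and 7 for acetazolamide against control (0.0438%), and CCN1 and CCN2 were in both sets. The GC-corrected call of CCN1 was lost without laminin replicate 1, where 0 genes were called, and without laminin replicate 3, where 8 were called, although its log2 fold change stayed at 0.61 and 0.56 in those fits. These calls come from the contrasts on which the genes were selected and support nothing further.

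Counting genes whose groups did not overlap, on CPM scaled by TMM factors, 3 of the 10 were higher in all laminin than in all control libraries (CCN1, CCN2 and AXL) beside 4.69% of all genes tested, and 0 were lower beside 3.96%. For acetazolamide against control, 2 of the 10 were higher (CCN1 and CCN2) beside 3.21%, and 0 were lower beside 2.1%. Between laminin and acetazolamide, 0 of the 10 were separated in either direction, beside 3.01% higher and 3.11% lower with laminin among all genes. Because the genes were picked with these contrasts known, nothing is read from these counts.

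Laminin and acetazolamide overlapped in both matricellular genes. The log2 fold change of CCN1 with laminin against acetazolamide was 0.14 (95% interval -0.10 to 0.38), and 0.16 (-0.02 to 0.33) with GC correction. This value depended on single libraries. With GC correction it was 0.23 (SE 0.07) without laminin replicate 2, 0.09 (SE 0.08) without laminin replicate 3, and 0.23 (SE 0.08) without laminin replicate 2 and acetazolamide replicate 3 together. For CCN2 the log2 fold change was 0.01 (-0.23 to 0.25). The ratio of CCN1 to CCN2 counts, which does not depend on scaling between libraries, was 3.30, 3.43 and 3.65 in the laminin libraries and 3.12, 3.06 and 3.28 in the acetazolamide libraries, against 3.13, 3.03 and 3.09 in control. All laminin ratios were above all others, but narrowly so, with 3.296 in laminin replicate 1 next to 3.284 in acetazolamide replicate 3, and acetazolamide overlapped control.

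AXL (ENSG00000167601, chromosome 19, 41219203 to 41261766, plus strand), the receptor tyrosine kinase for GAS6 and a reported YAP target, was the third gene that did not overlap between laminin and control. It had 225.0, 240.7 and 239.1 CPM with laminin and 234.2, 193.3 and 269.0 CPM with acetazolamide, against 210.8, 170.7 and 209.5 CPM in control cells. The gap between the lowest laminin and the highest control library was small, and acetazolamide overlapped control. The log2 fold change with laminin against control was 0.23 (95% interval -0.05 to 0.51), and 0.20 (0.02 to 0.39) with GC correction. With acetazolamide it was 0.18 (-0.10 to 0.45), and 0.10 (-0.09 to 0.28) with GC correction. Without control replicate 2, and without GC correction, it was 0.18 (SE 0.14) with laminin and 0.12 (SE 0.14) with acetazolamide.

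ANKRD1 (ENSG00000148677, chromosome 10, 90912096 to 90921276, minus strand), an ankyrin repeat protein that is one of the standard YAP/TAZ reporters, had overlapping groups. Its level was 5.09, 4.03 and 6.58 CPM with laminin and 5.28, 5.89 and 4.06 CPM with acetazolamide, against 4.71, 4.72 and 5.03 CPM in control cells, from 63 to 260 counts per library. Treated libraries lay on both sides of control, and those below it were laminin replicate 2 and acetazolamide replicate 3. The log2 fold change was 0.13 (95% interval -0.38 to 0.64) with laminin and 0.04 (-0.47 to 0.55) with acetazolamide against control, intervals wide enough to hold a change of the size seen for CCN2. With GC correction it was 0.13 (-0.23 to 0.49) with laminin and 0.07 (-0.29 to 0.44) with acetazolamide. Without those replicates, and without GC correction, it was 0.31 (SE 0.18) with laminin and 0.17 (SE 0.18) with acetazolamide. This removal was chosen after seeing the data. It took out the treated libraries below control, so nothing is read from the remaining ones lying above it. The difference between the changes of ANKRD1 and CCN2 was not tested.

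**Figure D2:**
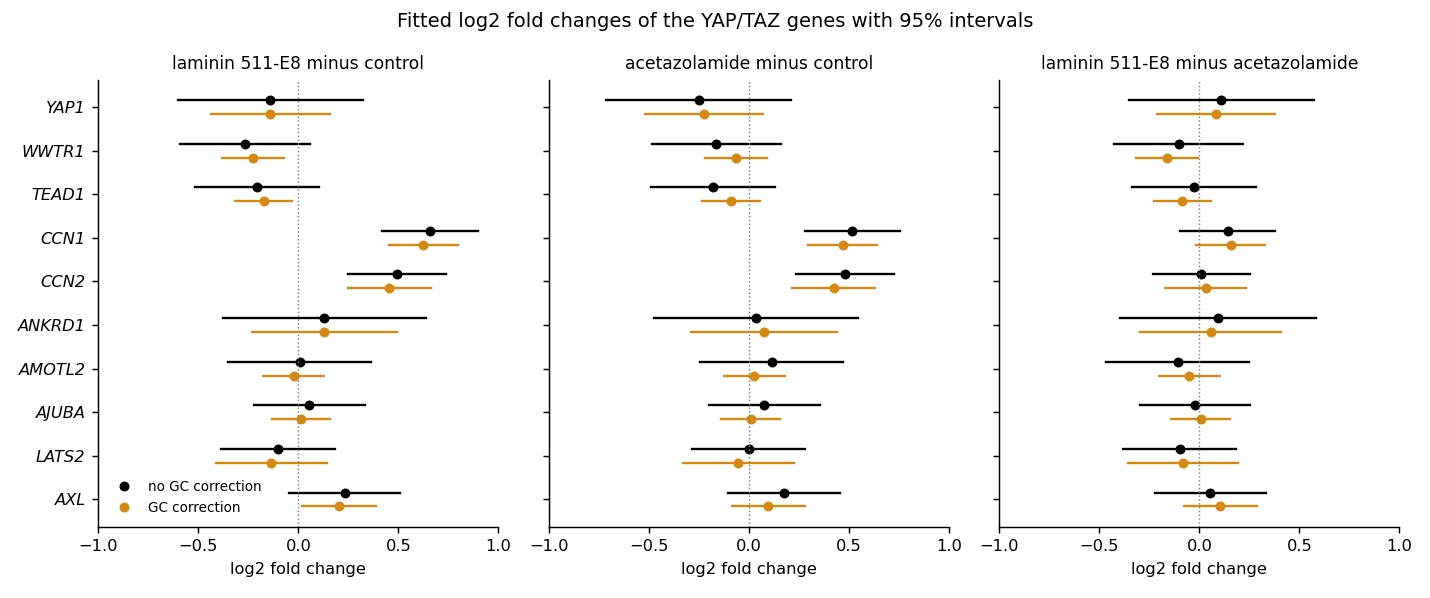
Log2 fold changes (horizontal axis) with 95% intervals for each of the 10 genes in laminin 511-E8 minus control, acetazolamide minus control and laminin 511-E8 minus acetazolamide, fitted by edgeR without (black) and with (orange) GC correction. The intervals of CCN1 and CCN2 lie above 0 against control in both treatments, at 0.66 and 0.49 with laminin and 0.52 and 0.48 with acetazolamide without correction, and include 0 between the treatments.

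The effectors themselves had lower mean CPM in both treated groups than in control, with overlapping libraries throughout. YAP1 (ENSG00000137693, chromosome 11, 102110461 to 102233423, plus strand), the coactivator, had 319.2, 234.1 and 342.5 CPM with laminin and 279.0, 355.4 and 217.2 CPM with acetazolamide, against 360.4, 286.7 and 327.9 CPM in control cells. Laminin replicate 2 and acetazolamide replicate 3 were the lowest of all 9 libraries. The log2 fold change of YAP1 was -0.14 (95% interval -0.60 to 0.32) with laminin and -0.25 (-0.71 to 0.21) with acetazolamide. With GC correction it was -0.14 (-0.44 to 0.16) with laminin and -0.22 (-0.52 to 0.07) with acetazolamide. Without those replicates, and without GC correction, it was 0.02 with laminin and -0.07 with acetazolamide. That fit was chosen after seeing the data and kept acetazolamide replicate 2, the highest of its group.

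WWTR1 (ENSG00000018408, chromosome 3, 149517235 to 149736714, minus strand), which encodes TAZ, had 117.9, 111.2 and 134.1 CPM with laminin and 128.8, 155.4 and 116.1 CPM with acetazolamide, against 152.6, 127.1 and 151.2 CPM in control cells. The groups overlapped only through laminin replicate 3 and control replicate 2 in the laminin comparison. Its log2 fold change with laminin was -0.27 (95% interval -0.59 to 0.06), and -0.23 (-0.38 to -0.07) with GC correction, which narrowed the interval so that it no longer held 0. With acetazolamide it was -0.16 (-0.49 to 0.16), and -0.07 (-0.22 to 0.09) with GC correction. For laminin against control with this correction, 1195 of 15737 genes had an unadjusted edgeR p under 0.05. Intervals without 0, also seen for TEAD1 and AXL there, were therefore not particular to these genes.

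TEAD1 (ENSG00000187079, chromosome 11, 12674591 to 12944483, plus strand), a DNA-binding partner of both coactivators, had 252.2, 216.7 and 260.2 CPM with laminin and 250.9, 288.8 and 221.8 CPM with acetazolamide, against 296.6, 239.7 and 292.7 CPM in control cells. Here too the lowest libraries were laminin replicate 2 and acetazolamide replicate 3. The log2 fold change with laminin was -0.21 (-0.51 to 0.10), and -0.17 (-0.32 to -0.03) with GC correction. With acetazolamide it was -0.18 (-0.49 to 0.13), and -0.09 (-0.23 to 0.05) with GC correction. Over the 32 settings, WWTR1 and TEAD1 were below 0 in every one against control, and neither was called in any. The settings refit the same libraries, so a shared sign among them is not repeated evidence.

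The 3 regulators, of which AMOTL2 and LATS2 are also in the published target signature, showed no separation from control. AMOTL2 (ENSG00000114019, chromosome 3, 134355874 to 134375479, minus strand), an angiomotin that binds YAP and holds it in the cytoplasm, had 88.2, 127.4 and 96.9 CPM with laminin and 107.8, 97.4 and 139.6 CPM with acetazolamide, against 96.0, 94.2 and 115.2 CPM in control cells. Its log2 fold change was 0.01 (-0.35 to 0.37) with laminin and 0.11 (-0.24 to 0.47) with acetazolamide. AJUBA (ENSG00000129474, chromosome 14, 22971174 to 22982642, minus strand), a LIM protein that restrains LATS kinases, had 126.4, 155.1 and 128.3 CPM with laminin and 137.3, 127.6 and 160.9 CPM with acetazolamide, against 131.8, 110.0 and 145.9 CPM in control cells. In both genes the highest libraries were again laminin replicate 2 and acetazolamide replicate 3, the reverse of YAP1.

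LATS2 (ENSG00000150457, chromosome 13, 20973032 to 21061547, minus strand), the kinase that phosphorylates YAP and TAZ and is itself a feedback target, had 58.1, 54.5 and 55.7 CPM with laminin and 59.6, 63.6 and 61.5 CPM with acetazolamide, against 60.6, 47.8 and 69.8 CPM in control cells. The control libraries spanned both treatments. Laminin lay below acetazolamide in all libraries on this scale, but not after TMM scaling. The log2 fold change of LATS2 was -0.10 (-0.39 to 0.18) with laminin and 0.00 (-0.29 to 0.28) with acetazolamide against control. Without control replicate 2 it was -0.20 (SE 0.12) with laminin and -0.10 (SE 0.12) with acetazolamide.

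The spread of several of these genes within groups followed the GC content of their longest transcript. It was 43.5% in YAP1, 40.9% in WWTR1, 41.3% in TEAD1 and 43.3% in ANKRD1, and these 4 genes were the lowest within their group in laminin replicate 2 and in acetazolamide replicate 3. AMOTL2, with 56.7% GC, and AJUBA, with 52.8%, were the highest there. Both CCN1 (50.3%) and CCN2 (51.5%) lie between these extremes. GC correction reduced the log2 SD of TEAD1 within laminin to 0.038, against 0.189 without it, and that of AMOTL2 within control to 0.029, against 0.113. It did not narrow every gene: within laminin the log2 SD of CCN1 was 0.116 with correction and 0.092 without it, and that of AXL was 0.138 with correction and 0.065 without it. Within acetazolamide those of CCN1 and AXL fell instead, to 0.062 against 0.093 and to 0.048 against 0.218. CCN2 widened in every group, to 0.125 against 0.079 within laminin, 0.086 against 0.041 within acetazolamide and 0.106 against 0.09 within control. LATS2 widened within both treatments but not within control.

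**Figure D3:**
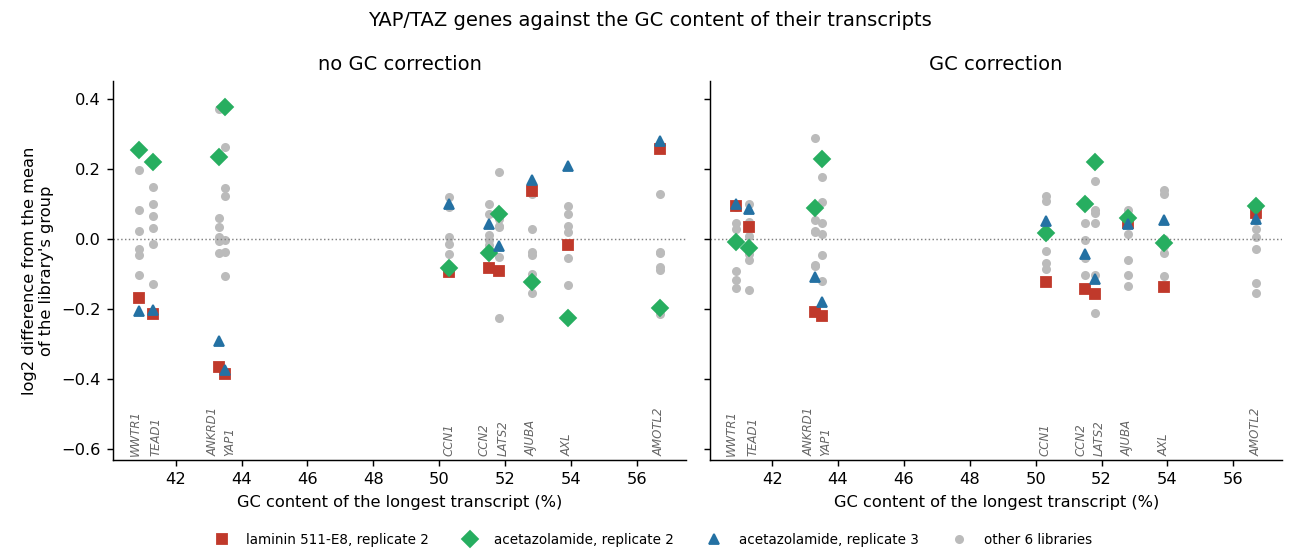
Log2 difference of each library from the mean of its group (vertical axis) against the GC content of the gene's longest transcript in percent (horizontal axis) for the 10 genes, before (left) and after (right) GC correction. Before correction, laminin replicate 2 (red squares) and acetazolamide replicate 3 (blue triangles) run from below 0 in WWTR1, TEAD1, ANKRD1 and YAP1 to above 0 in AJUBA and AMOTL2, and acetazolamide replicate 2 (green diamonds) runs the other way.

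Other genes of the pathway, taken from lists assembled with earlier results of these data known, were set beside the 10. Calls of genes from this and the following lists are those of edgeR, and DESeq2 calls are not given for them. As for the 10, these calls come from contrasts known when the lists were assembled and support nothing further. The published YAP/TAZ target signature, apart from its members among the 10, had 15 genes tested of 16. Without GC correction 8 of them were positive and 7 negative with laminin against control, with a median log2 fold change of 0.015, and 7 were positive and 8 negative with acetazolamide, with a median of -0.046. The medians of all genes tested were -0.003 with laminin and 0.005 with acetazolamide. So the other signature genes were centred near all genes. Of the 15, edgeR called only F3, and only under GC correction. F3, tissue factor, averaged 233.8 ± 34.4 CPM with laminin and 148.3 ± 9.93 CPM in control cells, and rose with laminin under GC correction (log2 fold change 0.63, SE 0.09, edgeR adjusted p = 0.0183). This call held in 3 of 9 GC-corrected fits with 1 library left out (adjusted p 0.0101 to 0.123, lost without laminin replicate 1 or 3, acetazolamide replicate 1 or any control replicate). The most abundant of this list, CRIM1 and ASAP1, were not called. On the log2 scale CRIM1 stood at -0.15 with laminin and -0.09 with acetazolamide, and ASAP1 at -0.09 with laminin and -0.16 with acetazolamide.

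Upstream kinases and scaffolds of the Hippo pathway had 22 genes tested of 24, of which 8 were positive and 14 negative with laminin, with a median of -0.035, and 6 positive and 16 negative with acetazolamide, with a median of -0.049. None was called in either comparison, with or without GC correction. TAOK1, a kinase above the Hippo core, averaged 410.9 ± 74.0 CPM with laminin and 390.1 ± 94.7 CPM with acetazolamide, against 450.8 ± 20.2 CPM in control cells. FAT1, an atypical cadherin, averaged 302.1 ± 7.70 CPM with laminin and 304.0 ± 16.8 CPM with acetazolamide, against 291.2 ± 27 CPM in control cells.

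Of the binding partners of YAP, TAZ and TEAD, 13 of 14 were tested and 0 were called, with 5 positive and 8 negative and a median of -0.03 with laminin, and with 7 positive and 6 negative and a median of 0.014 with acetazolamide. The transcription factor RUNX2 averaged 141.9 ± 6.31 CPM with laminin, 130.3 ± 9.46 CPM with acetazolamide and 140.6 ± 7.69 CPM in control cells. PTPN14, a phosphatase that binds YAP, averaged 100.7 ± 0.947 CPM with laminin, 106.1 ± 3.97 CPM with acetazolamide and 105.2 ± 9.91 CPM in control cells. The list holds the paralogues of TEAD1. Without GC correction, TEAD2, TEAD3 and TEAD4 stood at 0.06, 0.28 and 0.18 with laminin on the log2 scale. With acetazolamide they stood at 0.07, 0.14 and 0.07, and all these intervals held 0. With GC correction they were 0.03, 0.25 and 0.16 with laminin, and -0.03, 0.03 and -0.03 with acetazolamide.

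SRF and actin targets, which include genes that respond to the same mechanical inputs through another coactivator, had 17 genes tested of 18 and 0 called. With laminin 11 were positive and 6 negative (median 0.033), and with acetazolamide 10 were positive and 7 negative (median 0.009). FLNA, the actin crosslinker filamin A, averaged 1472 ± 389.7 CPM with laminin, 1534 ± 537.4 CPM with acetazolamide and 1409 ± 312.9 CPM in control cells. CALD1, caldesmon, averaged 483.0 ± 44.2 CPM with laminin, 506.6 ± 82.1 CPM with acetazolamide and 543.7 ± 18.6 CPM in control cells.

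Immediate early genes, the transcripts that growth factor and stress signals induce first, leaned the way of CCN1 and CCN2. Of 18 tested of 20, 15 were positive and 3 negative with laminin against control (median log2 fold change 0.309), and 17 were positive and 1 negative with acetazolamide (median 0.244), beside the medians of all genes given above. With GC correction 15 were positive and 3 negative with laminin (median 0.279), and 14 were positive and 4 negative with acetazolamide (median 0.158). The single edgeR call was MYC, the growth-promoting transcription factor, which rose with laminin under GC correction (log2 fold change 0.57, SE 0.06, edgeR adjusted p = 0.00584). MYC averaged 106.4 ± 12.2 CPM with laminin and 97.0 ± 13.8 CPM with acetazolamide, against 68.7 ± 5.41 CPM in control cells. Its call held in 8 of 9 GC-corrected fits with 1 library left out (edgeR adjusted p 0.00528 to 0.0607, lost without laminin replicate 1). Like that of F3, this call comes from a contrast known when the list was assembled. The most abundant of the list were KLF6, a zinc finger factor, and DUSP1, a phosphatase of MAP kinases. KLF6 averaged 183.3 ± 23.0 CPM with laminin, 190.8 ± 19.99 CPM with acetazolamide and 175.9 ± 14.9 CPM in control cells. DUSP1 averaged 165.1 ± 13.6 CPM with laminin and 195.1 ± 13.5 CPM with acetazolamide, against 132.2 ± 11.3 CPM in control cells, without a call.

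**Figure D4:**
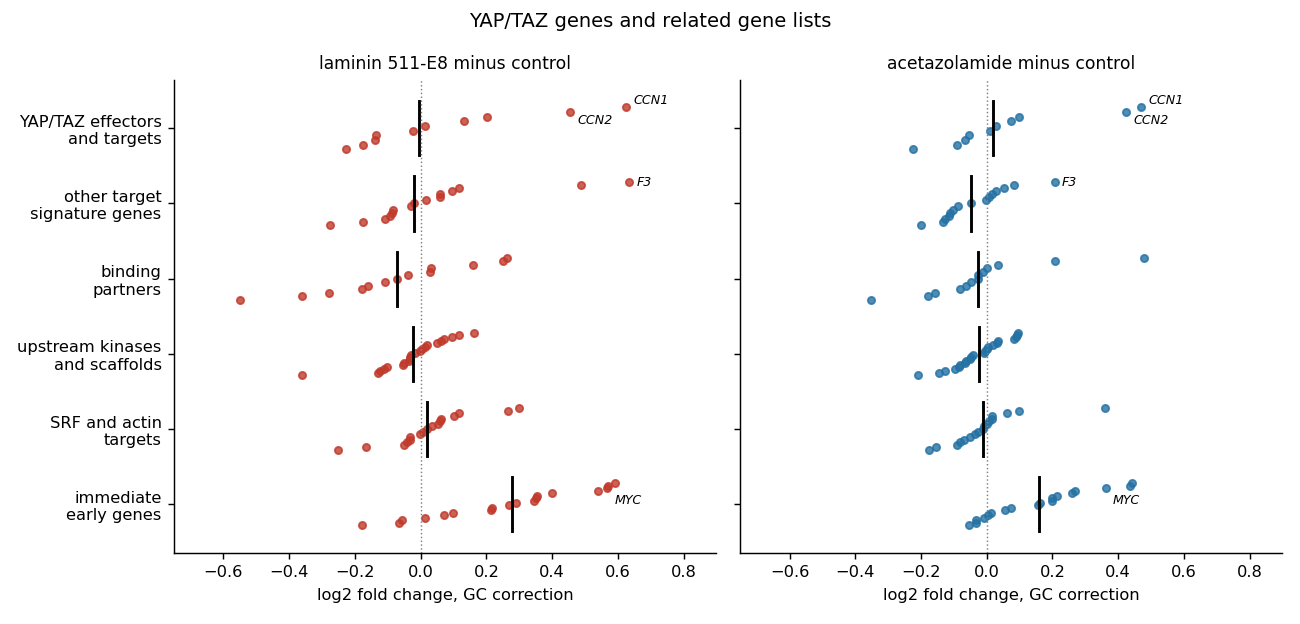
GC-corrected log2 fold changes (horizontal axis) of single genes, grouped by list on the vertical axis, for laminin 511-E8 minus control (red) and acetazolamide minus control (blue). Each point is a gene and each black bar the median of its list. With laminin, F3 and CCN1 are the highest genes of the published target list, at 0.635 and 0.625, and the median of the immediate early genes is 0.279 with laminin and 0.158 with acetazolamide.

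Across all 9 libraries, the gene most like CCN1 among 10513 genes with a mean of at least 5 CPM was CCN2, and the reverse held too, with a Pearson r of 0.972 between their log2 values. After CCN2, the genes most like CCN1 were OCRL (0.941), EGR1 (0.934) and KARS1 (0.897). Those most like CCN2 after CCN1 were EPB41L4A-AS1 (0.942), MARK3 (0.934) and AFG3L2 (0.898). These values are a description over libraries that share groups and scaling. EGR1, an immediate early transcription factor, averaged 63.5 ± 1.38 CPM with laminin, 61.2 ± 6.06 CPM with acetazolamide and 48.0 ± 0.471 CPM in control cells. As for CCN1, both treated groups lay above control and overlapped each other.

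Levels of cell identity markers were set beside these genes, and KRT19 was the only one edgeR called, under GC correction. Its calls too come from contrasts known when the lists were assembled, and support nothing further. The 15 cholangiocyte markers summed to 3047 to 3531 CPM with laminin and 3570 to 4432 CPM with acetazolamide, against 3554 to 4236 CPM in control cells. All laminin sums were below all control sums, but narrowly so, with 3531 CPM next to 3554 CPM. These sums were led by KRT7 and CD24 and were not GC corrected. All 9 markers tested were negative with laminin (median log2 fold change -0.242), among them CD24 at -0.43 and KRT7 at -0.10, and with acetazolamide 5 were positive and 4 negative (median 0.032). KRT19 averaged 450.2 ± 98.0 CPM with laminin, 697.0 ± 205.3 CPM with acetazolamide and 603.9 ± 76.8 CPM in control cells. It fell with laminin under GC correction, by 0.44 on the log2 scale against control (edgeR adjusted p = 0.0145) and by 0.49 against acetazolamide (edgeR adjusted p = 0.0106). With 1 library left out of the GC-corrected fit, the call against control held in 4 of 9 fits (edgeR adjusted p 0.0144 to 0.114) and that against acetazolamide in 5 of 9 (0.00688 to 0.0947). Both were lost without any 1 of the laminin replicates or acetazolamide replicate 1, that against control also without control replicate 1, and both without laminin replicate 2 and acetazolamide replicate 3 together (adjusted p = 0.0554 against control and 0.133 against acetazolamide). The 13 mesenchymal markers summed to 800.0 to 907.7 CPM with laminin and 681.2 to 839.7 CPM with acetazolamide, against 713.7 to 776.9 CPM in control cells, led by FN1 and VIM. COL3A1 and LUM were at 0 counts throughout, and 7 of the 13 markers were tested with 0 called. Leukocyte markers summed to at most 9.03 CPM, led by CD14 and ITGAM, with CD3E at 0 counts, and endothelial markers to at most 4.64 CPM, led by KDR and CLDN5, with CDH5 at 0 counts. The part of these markers in the values of CCN1 and CCN2 was not tested.

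Counts of the 10 genes could include reads of overlapping genes, since no source used here names the strand setting. These overlapping genes had few counts of their own. Over all libraries, the gene on the strand opposite CCN2 had 27 counts beside 9483 of CCN2, that opposite WWTR1 had 177 beside 28873, and that opposite YAP1 had 86 beside 66605. No gene overlapped the exons of CCN1, TEAD1, ANKRD1 or LATS2. YAP1 has annotated processed copies, YAP1P1 and YAP1P2, to which its reads could be divided.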

How the data were processed

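Gene-level read counts, not normalized, were deposited by the authors for 3 laminin 511-E8, 3 acetazolamide and 3 control libraries of H69 cells. The submitters' processing notes name GRCh38 as the build and 4 tools, HTSeq 0.11.0, HISAT2 2.2.1, Trimmomatic 0.39 and FastQC 0.11.9. Which annotation release and strand setting were used, and how reads matching more than 1 gene were handled, is not given in the sources used here. For each group, the libraries were made from the 3 samples with the best RNA integrity, so RNA quality entered the choice of replicates. Of 61541 gene identifiers, 61369 were matched to a symbol and 58312 to a GC content.

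CPM were computed by total counts and TPM with the length of the joined exons. Group differences were fitted under R 4.3.3 in edgeR 4.0.16 by a robust quasi-likelihood model of all 9 libraries after filterByExpr and TMM scaling, with Benjamini-Hochberg adjustment over all genes tested and a threshold of 0.05. For GC correction, a local regression of each library's deviations on GC content (span 0.3) entered the fit as an offset, over 15737 genes. DESeq2 1.42.0, limma 3.58.1 (voom), RLE and upper-quartile scaling, other filters, the 6 libraries compared, a replicate block and fits without each library in turn were alternatives. The fit without laminin replicate 2 and acetazolamide replicate 3 was chosen after seeing the data. The scripts were tested on simulated counts.

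The 10 genes and the gene lists were chosen with earlier results of these data known. Beside the 10, the text names from each list the genes edgeR called with or without GC correction and the 2 with the highest mean CPM. TEAD2, TEAD3 and TEAD4 are named as paralogues of TEAD1. It also names the 4 genes most correlated with CCN1 and with CCN2 on log2(CPM + 0.5) after TMM scaling. The level of 1 list gene is not reported here. Python 3.11.15 with pandas 2.3.3 and matplotlib 3.10.9 was used for levels, promoter windows and plots.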

Additional observations from a re-analysis of the deposited data

How the results depend on the processing

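The number of genes called depended on the method. Without GC correction edgeR called 0 genes in each comparison under every scaling, filter and single library left out, as did limma voom. DESeq2 called 21 genes for laminin against control, 7 for acetazolamide against control and 19 for laminin against acetazolamide. GC correction gave 49, 0 and 30 in the same comparisons with edgeR, and 135, 13 and 99 with DESeq2. With GC correction and each library left out in turn, the counts ranged from 0 to 61, from 0 to 3 and from 0 to 31. Without laminin replicate 2 and acetazolamide replicate 3, chosen after seeing the data, GC-corrected edgeR called 27, 0 and 0, and CCN1 and CCN2 were among the 27. The main fit did not pair libraries by replicate number. Deviations of libraries with the same number correlated from -0.642 to 0.232. These correlations were computed without GC correction, so the GC trends of the libraries enter them and they cannot settle pairing. The fit with the replicate block called 0 genes in all comparisons, without GC correction and with it. With GC correction, its lowest edgeR adjusted p was 0.061 for laminin against control and 0.0659 for laminin against acetazolamide. The GC-corrected calls of CCN1, F3, MYC and KRT19 were thus not made under the block. Of 930 alternative log2 fold changes of the 10 genes, 920 stayed within 1 SD between replicates and 10 moved by more, all 10 with GC correction and a library left out. The sign changed in 83, and CCN1 and CCN2 kept theirs against control in all alternatives. These fits reuse the same libraries, so a kept sign is not repeated evidence. The cause of the differences between settings was not tested. Depth limits ANKRD1 most, at 63 to 260 counts per library.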
